A study of Mus musculus with 12 samples.

Results

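Control cells sorted from mouse cortex as OPCs (oligodendrocyte precursor cells, the dividing cells that give rise to oligodendrocytes) were compared with control cells sorted from cortex as neurons. All control libraries of the study were taken, 3 of the OPC fraction and 3 of the neuron fraction, which makes 6 of the 12 RNA-seq libraries of the series. The ctl mice are labelled WT. The other 6 libraries come from dKO mice, in which NG2-CreERT2, a Cre expressed from the NG2 (Cspg4) promoter, deletes floxed Cav1.2 (Cacna1c) and Cav1.3 (Cacna1d) once tamoxifen has been injected (100 mg/kg, at postnatal days 7 and 8). Whether the ctl mice carried Cre or floxed alleles, and the age at RNA isolation, are not given in the sources used here, and dKO libraries entered only as an alternative to the ctl libraries. Each library pooled the cells of 2 mice. Perfusion before dissection is described for the OPC isolation, and is not stated separately for the neuron isolation. The OPC fraction was what magnetic beads against CD140, NG2 and O4 retained, and the neuron fraction was what flowed through a column meant to hold back ACSA-2, CD31, CD11b and O4 positive cells on beads. The study asked how contact with OPCs affects neurons, so the comparison addresses which cells these fractions held.

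Oligodendrocytes arise from OPCs, which carry the growth factor receptor PDGFRα and the proteoglycan NG2. As OPCs commit and mature they lose these proteins, gain the sulfated lipid recognised by the O4 antibody, and then express myelin proteins such as MBP. Cortical neurons are mostly excitatory cells that release glutamate, with a minority of inhibitory cells that release GABA. Brain capillaries are lined by endothelial cells that are sealed by tight junctions and carry CD31 and many nutrient transporters.

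Total counts were 14935963 to 19812274 per library in the OPC fraction and 15243163 to 16222288 in the neuron fraction. The tables of the fractions were counted in different ways, so no test was run between them, and with 3 libraries against 3 an exact two-sided permutation test could not give a p under 0.1. Instead, 16503 genes were matched by symbol and ranked by CPM (counts per 1000000 counts of the library) within each library, and each rank was given the mean log2(CPM + 1) found at that rank over the 6 libraries, called the level below. A gene was called higher in a fraction when its lowest library there lay at least 1 log2 unit above the highest library of the other fraction. Among 14060 genes with a mean CPM of at least 1, 2635 were called higher in the OPC fraction, which is 18.7%, and 2656 in the neuron fraction, which is 18.9%. The counts of listed genes given below are to be read against these shares. A gene near 0 in one fraction could pass the filter on mean CPM only through the other fraction, so a count over such genes is no support for its direction. The median OPC-minus-neuron level difference over these 14060 genes was -0.13 log2 units. Ranks correlated at a Spearman's rho of 0.984 to 0.991 within the OPC fraction, 0.972 to 0.980 within the neuron fraction and 0.597 to 0.652 between the fractions, across genes, which are not independent replicates.

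The neuron libraries were not alike. Neuron ctl 3 correlated at 0.597 to 0.599 with the OPC libraries, and neuron ctl 1 and 2 at 0.646 to 0.652. The summed CPM of the Y-linked genes Ddx3y, Eif2s3y, Kdm5d and Uty was 291, 268 and 262 in OPC ctl 1, 2 and 3. In the neuron fraction it was 389.6 in neuron ctl 1 but 0.370 and 0.914 in neuron ctl 2 and 3. Male RNA was thus present in all OPC libraries and in neuron ctl 1, and near absent in neuron ctl 2 and 3. The sex of the mice therefore differed among the neuron libraries and was not balanced between the fractions, and its part in the differences was not tested. Libraries with the same number therefore do not all come from the same mice. Neuron ctl 1 held the most microglial and oligodendrocyte RNA and the least erythroid RNA of the neuron libraries.

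The marker check went against both labels in part. The OPC fraction was led by mature oligodendrocyte RNA, and OPC markers made up a small share of it. In the neuron fraction, endothelial and erythroid RNA outweighed the neuronal markers. In bulk RNA, fewer cells of a type and less RNA per cell cannot be told apart, so these shares describe RNA and not cell numbers.

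**Figure D1:**
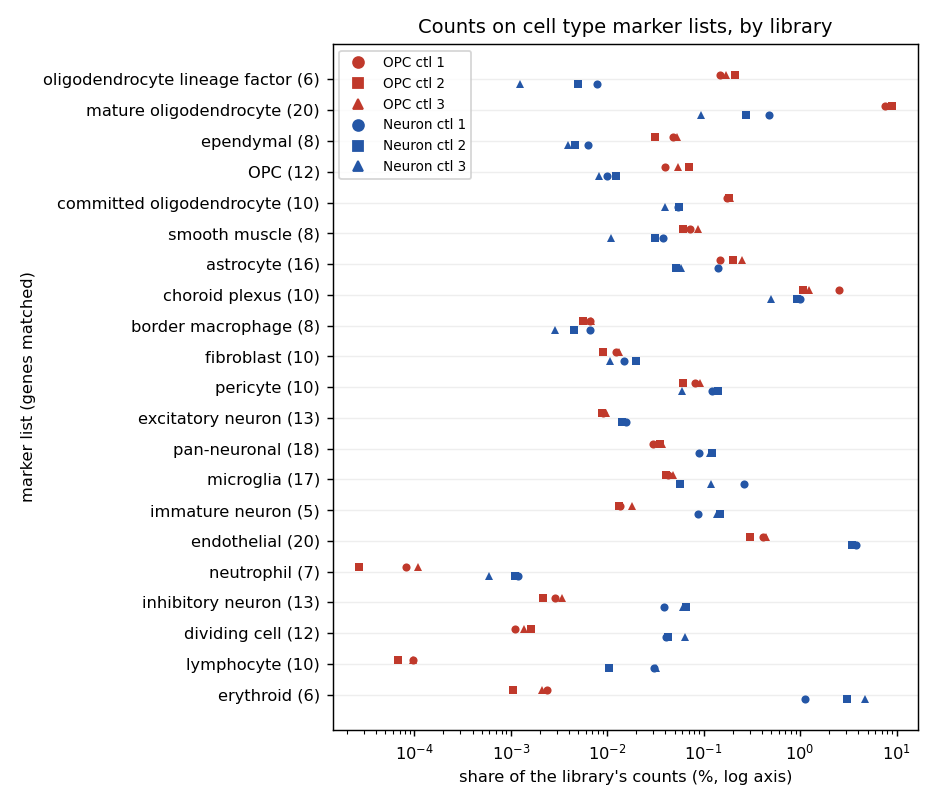
Share of each library's counts (%, log axis) on 21 lists of cell type markers, with the number of matched genes in brackets; red points are the 3 OPC ctl libraries, blue points the 3 neuron ctl libraries, and the point shape gives the library number. Mature oligodendrocyte markers took 7.63 to 8.94% of the OPC libraries and 0.0927 to 0.478% of the neuron libraries, and erythroid markers 1.12 to 4.68% of the neuron libraries.

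Mature oligodendrocyte markers took 7.63, 8.94 and 8.33% of the counts in OPC ctl 1, 2 and 3, a mean of 8.3% ± 0.65 (SD, n = 3). In neuron ctl 1, 2 and 3 they took 0.478, 0.273 and 0.0927%, a mean of 0.281% ± 0.19 (SD, n = 3), or 0.183% without neuron ctl 1. Of the listed genes, 20 of 20 were called higher in the OPC fraction, and their median level difference was 5.33 log2 units. By percentile ranks with a gap of 10 points, 14 of 20 were called. A gene within the top 10 points in the lower fraction cannot be called on that scale. The myelin membrane protein genes led. Mbp, whose protein holds the inner faces of the myelin membrane together, stood at 24541, 22102 and 25842 CPM in the OPC libraries and 1197, 739 and 192 CPM in the neuron libraries. Mbp held rank 1 or 2 among all matched genes in every OPC library, and the fractions did not overlap. The level of Mbp was 14.15 ± 0.09 in the OPC fraction and 9.05 ± 1.35 in the neuron fraction, a difference of 5.10 log2 units. Per length, Mbp averaged 10390.5 TPM (values per length, scaled to the same total in each library) in the OPC fraction.

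Other genes of the myelin sheath followed the same order. Mobp, a further myelin protein, was at 8347, 7373 and 8110.0 CPM in the OPC fraction and at 106, 57.8 and 11.6 CPM in the neuron fraction, which is the largest level difference of the 20 listed genes, at 7.42 log2 units. The adhesion protein Mag, which faces the axon, was at 2380.1, 3283 and 2637 CPM against 114, 52.7 and 3.98 CPM. Cldn11, which forms the tight junctions between myelin layers, was at 1813, 2703 and 1955 CPM against 95.1, 55.8 and 11.6 CPM. In each of these genes neuron ctl 1 was the highest and neuron ctl 3 the lowest neuron library, as it was for Mbp. Mal had the smallest difference of the list, at 3.40 log2 units. Trf, which codes for the iron carrier transferrin, was at 3572, 4913 and 4093 CPM against 262, 143 and 105 CPM, but 63.5% of its exonic bases lie in another annotated gene as well, so its count is uncertain. Without genes that share at least 20% of their exonic bases, 19 of 19 listed genes were called.

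Genes that mark a late state of oligodendrocytes were looked at after the levels had been seen. Of these, 9 of 10 were called higher in the OPC fraction. Il33, an alarm cytokine stored in the nucleus, was at 402, 534 and 477 CPM against 23.6, 9.68 and 9.4 CPM, and Ptgds, which makes prostaglandin D, at 2048, 2264 and 1984 CPM against 133, 84.5 and 48.7 CPM. Klk6, a serine protease of mature oligodendrocytes, was at 61.2, 89.2 and 112 CPM against 1.9, 0.432 and 0.261 CPM.

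OPC markers made up 0.0396, 0.0705 and 0.0546% of the counts in the OPC libraries, a mean of 0.0549% ± 0.015 (SD, n = 3). In the neuron libraries they made up 0.00996, 0.0123 and 0.00825%, a mean of 0.0102% ± 0.002 (SD, n = 3). Of the listed genes, 7 of 12 were called higher in the OPC fraction and 0 in the neuron fraction. Pdgfra, the receptor bound by the CD140 bead, was at 44.1, 115 and 73.8 CPM against 15.9, 17.6 and 8.23 CPM. OPC ctl 2 was the highest and OPC ctl 1 the lowest OPC library for Pdgfra, and the fractions did not overlap. Its level was 6.28 ± 0.70 in the OPC fraction and 3.81 ± 0.47 in the neuron fraction, a difference of 2.46 log2 units. With the trend on GC content and transcript length removed in each library, an alternative chosen after seeing the data, the difference was 1.92 log2 units and Pdgfra was not called. Per length, Pdgfra averaged 28.5 TPM in the OPC fraction, beside 10390.5 TPM for Mbp in the same libraries.

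The members of the OPC list did not move alike. Tnr, which codes for the matrix protein tenascin-R and is also made by oligodendrocytes, took the largest share of the list, at 181, 303 and 238 CPM against 11.7, 10.4 and 4.57 CPM. Cspg4, which codes for NG2 and is also expressed by pericytes, was at 32.6, 45.9 and 45.4 CPM against 10.8, 8.88 and 3.85 CPM. Vcan, the proteoglycan versican, was at 39.8, 71.5 and 54.2 CPM against 37.1, 60.8 and 51.5 CPM and overlapped between the fractions. Xylt1 and Matn4 had differences of 4.46 and 3.63 log2 units, whereas Lhfpl3, Cacng4, Emid1, Lnx1 and Vcan were not called. Without OPC ctl 1, 9 of 12 genes were called.

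The transcription factors of the lineage differed as widely as the myelin genes, and the genes of committed cells less so. Of the lineage factors, 6 of 6 were called higher in the OPC fraction, with a median level difference of 5.42 log2 units. Olig1 was at 614, 884 and 759.6 CPM against 33.1, 16.2 and 3.33 CPM and Sox10, which drives both OPC and myelin genes, at 404, 552 and 400.4 CPM against 17.1, 13.2 and 2.48 CPM. Among markers of committed oligodendrocytes, whose median level difference was 1.77 log2 units, 5 of 10 were called higher in the OPC fraction and 2, Rras2 and Lims2, in the neuron fraction, where 1 was called with the dKO libraries in place of ctl. Bcas1, expressed in early myelinating cells, was at 1256, 1084 and 1287 CPM against 36.5, 26.1 and 5.29 CPM. Gpr17, a receptor of cells that have just left the precursor state, was at 159, 295 and 213 CPM against 33.1, 38.5 and 4.57 CPM. Among the 2635 genes called for the OPC fraction, Myrf, the factor that switches on myelin genes, had the largest gap between fractions among those with a mean CPM of at least 50, at 788, 1032 and 783 CPM against 3.35, 1.54 and 0.261 CPM.

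Myelin is rich in cholesterol and galactolipids, and 8 of 22 genes of myelin lipid synthesis were called higher in the OPC fraction and 1, Idi1, in the neuron fraction, a call that was lost by ranks per length and with the trend on GC content and length removed. Fa2h, which adds the hydroxyl group to myelin lipids, was at 560.0, 751 and 553 CPM against 11.6, 6.78 and 1.31 CPM. The fatty acid desaturase Scd2 was at 6161, 7807 and 6742 CPM against 529, 446 and 389 CPM and Fasn, the fatty acid synthase, at 553, 676 and 534 CPM against 26.7, 34.1 and 26.4 CPM. Within cholesterol synthesis, Dhcr7, which acts in its last steps, was called, with a difference of 2.92 log2 units. By ranks per length, 14 of 22 genes were called for the OPC fraction.

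**Figure D2:**
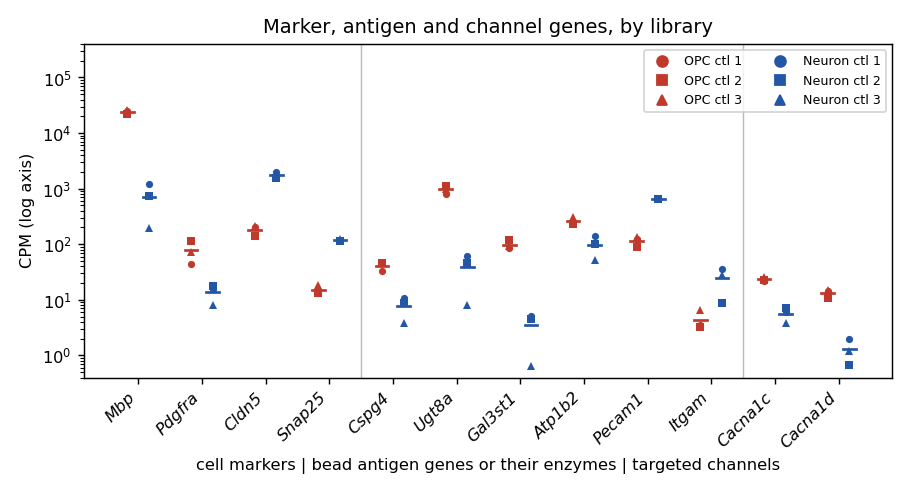
CPM (log axis) of the 4 cell markers, of the genes of the bead antigens or the enzymes that make them, and of the targeted channels; red points are OPC ctl and blue points neuron ctl libraries, and each bar is the mean of 3 libraries. Pecam1 lay at 643 to 659.8 CPM in the neuron libraries and at 90.9 to 136 CPM in the OPC libraries.

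The genes behind the bead antigens were followed in both fractions. Ugt8a and Gal3st1, the enzymes that make the O4 antigen, were called higher in the OPC fraction, as were Pdgfra and Cspg4. Ugt8a was at 812, 1131 and 968 CPM against 62.7, 45.5 and 7.97 CPM and Gal3st1 at 84.1, 120.4 and 91.9 CPM against 5.18, 4.56 and 0.653 CPM. O4 beads were used to retain cells for the OPC fraction and to remove them from the neuron fraction. Atp1b2, which codes for the astrocyte antigen of ACSA-2, was at 249, 232 and 309 CPM in the OPC fraction and 141, 100.3 and 51.3 CPM in the neuron fraction and was not called. It was called higher in the OPC fraction by TMM scaling, by ranks per length, with the dKO libraries and without neuron ctl 1. Itgam, which codes for CD11b of microglia and other myeloid cells, was at 3.48, 3.21 and 6.49 CPM against 35.4, 8.94 and 28.5 CPM and was not called either, and 68.7% of its exonic bases lie in another annotated gene as well. Pecam1, which codes for CD31, was called higher in the neuron fraction. It was at 122, 90.9 and 136 CPM in the OPC fraction and 659.8, 658 and 643 CPM in the neuron fraction, 2.35 log2 units higher in the fraction from which CD31 beads were to take it out. With the dKO libraries in place of ctl Pecam1 was not called. Without neuron ctl 2, or without OPC ctl 3, Itgam was called higher in the neuron fraction as well. With the trend on GC content and length removed Ugt8a and Gal3st1 were called for the OPC fraction, and Pdgfra and Cspg4 were not.

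The channels that the study deleted in dKO mice were detected in both ctl fractions. Cacna1c was at 21.5, 23.1 and 25.5 CPM in the OPC fraction and 6.04, 7.03 and 3.79 CPM in the neuron fraction. Cacna1d was at 14.5, 10.7 and 14.8 CPM against 1.97, 0.678 and 1.21 CPM. The fractions did not overlap for either gene, and both were called higher in the OPC fraction, by 1.96 and 2.66 log2 units. Cacna1c was not called by ranks per length or with the trend on GC content and length removed, where its differences were 0.98 and 0.97 log2 units, while Cacna1d was called in both. With the dKO libraries of both fractions in place of ctl, neither was called, at 1.19 and 1.56 log2 units. The deletion is directed at OPCs, and its part in these lost calls was not tested. Of the voltage-gated calcium and sodium channel genes, 5 of 12 were called for the OPC fraction, each a calcium channel subunit, with Cacna1h the highest at 29.8, 28.4 and 24.6 CPM against 1.9, 3.39 and 0.98 CPM. With that trend removed, 1 channel gene was called for the OPC fraction and 2 for the neuron fraction, and by ranks per length, as with the dKO libraries, 3 were called for the OPC fraction.

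Markers of other cell types were detected in the OPC fraction, and some of them in both fractions. Choroid plexus markers took 2.52, 1.06 and 1.24% of the OPC libraries and 0.992, 0.927 and 0.50% of the neuron libraries. Ttr, which codes for the thyroid hormone carrier transthyretin of the choroid plexus, made up 88.3% and 91.8% of these shares. It was at 22311, 9396 and 10852 CPM in the OPC fraction and 9183, 8455 and 4566 CPM in the neuron fraction, among the 8 highest matched genes of every library. Enpp2, the enzyme autotaxin of choroid plexus and oligodendrocytes, was at 14012, 7433 and 8356 CPM against 6348, 7320.4 and 3967 CPM. Ttr and Enpp2 were the 2 genes shared by the 12 highest genes of the fractions, and neither was called, though Ttr was called higher in the OPC fraction with the trend on GC content and length removed. OPC ctl 1 held the most Ttr, and without it the OPC share was 1.15%. The choroid plexus genes Kl, Aqp1, Slc4a5 and Prlr were called higher in the OPC fraction, 4 of 10 in all. With the dKO libraries 1 was called for each fraction, and the share in the neuron fraction was 1.92% in place of 0.806%. Without OPC ctl 1, or without neuron ctl 3, 1 gene was called for the neuron fraction.

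Ependymal cells, the ciliated cells that line the ventricles, also left RNA in the OPC fraction. Of their markers, 4 of 8 were called higher there. Foxj1, the factor that drives motile cilia, was at 189.8, 135 and 196 CPM against 3.15, 1.66 and 1.5 CPM, and Ccdc153 at 93.5, 57.6 and 114 CPM against 1.31, 0.123 and 0.392 CPM. The list took 0.048, 0.0311 and 0.0533% of the OPC libraries. With the trend on GC content and length removed 7 of 8 genes were called, and 7 of 8 without OPC ctl 2.

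Astrocyte markers took 0.146, 0.202 and 0.248% of the OPC libraries and 0.14, 0.0513 and 0.0576% of the neuron libraries. Neuron ctl 1 lay just below OPC ctl 1, and 6 of 16 genes were called higher in the OPC fraction. Without neuron ctl 1, 11 of 16 were called, with dKO libraries in place of ctl 12 of 16, and by log2(CPM + 1) without ranks 3 of 16. Slc1a2, the main astrocytic glutamate transporter, was at 417, 778 and 859 CPM against 229, 42.4 and 47.2 CPM. Gja1, the gap junction protein connexin 43, was at 95.8, 100.0 and 145 CPM against 268, 188 and 217 CPM and was not called. Of the mural cells of vessels, smooth muscle had 3 of 8 markers called for the OPC fraction, led by Myh11 at 241, 203 and 293 CPM against 32.3, 31.9 and 5.81 CPM, and 1, Tagln, for the neuron fraction. Of Tagln's exonic bases 67.9% lie in another annotated gene as well, so its call is uncertain, and without OPC ctl 3 or without neuron ctl 3 the count for the neuron fraction was 2. Pericyte, fibroblast and border macrophage lists overlapped in their shares between the fractions.

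Genes induced within minutes by activity or by cell dissociation were high in the OPC fraction. The list took 1.13, 1.14 and 1.25% of the OPC libraries, a mean of 1.17% ± 0.067 (SD, n = 3), and 0.371, 0.446 and 0.366% of the neuron libraries, a mean of 0.394% ± 0.045 (SD, n = 3). Of its genes, 15 of 25 were called higher in the OPC fraction and 1, Ier3, in the neuron fraction, a call that was lost by ranks per length, with the dKO libraries and with the trend on GC content and length removed. Fos was at 1744, 2010.5 and 1903 CPM against 327, 375 and 252 CPM. Fosb, which codes for a partner of the Jun proteins like Fos, was at 1238, 1518 and 1360.4 CPM against 7.28, 7.4 and 5.09 CPM, a difference of 7.61 log2 units. The heat shock gene Hspa1b was at 1282, 1305 and 1449 CPM against 21.5, 15.5 and 8.53 CPM. Hspa1a and Hspa1b are near-identical copies, with 60.4% and 62.3% of their 50-base stretches found in another gene, so how reads were split between them is uncertain. Not all members followed. Dusp1, a phosphatase that ends kinase signalling, was at 549, 481 and 551 CPM against 456, 763 and 633 CPM, and Klf2, Ier2 and Btg2 were not called. A warm incubation to restore surface antigens before the beads is described for the OPC isolation, and its part in this difference was not tested.

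**Figure D3:**
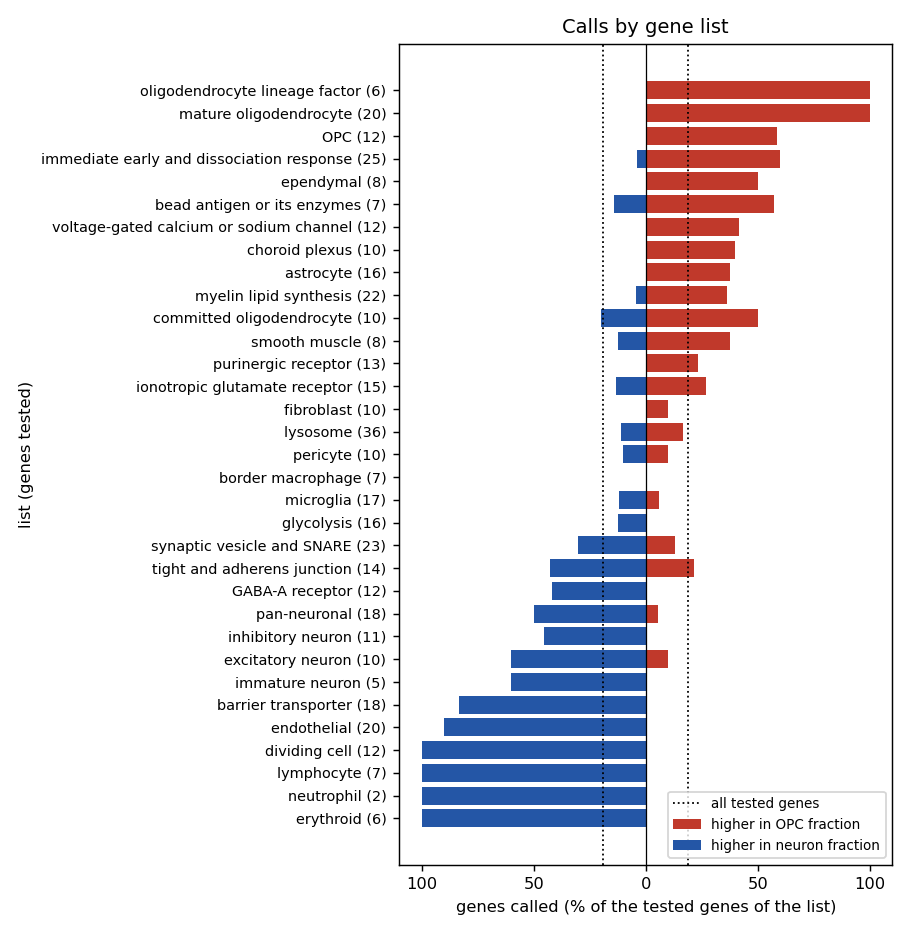
Percent of the tested genes of each list that were called higher in the OPC fraction (red, to the right) or in the neuron fraction (blue, to the left), with the number tested in brackets; dotted lines give the shares over all 14060 genes tested, 18.7% and 18.9%. Mature oligodendrocyte and lineage factor lists lie wholly to the right, and erythroid and dividing cell lists wholly to the left. The lymphocyte and neutrophil bars hold only the 7 of 10 and 2 of 7 matched genes that passed the filter. The dividing cell genes, low in the OPC fraction, passed it largely through the neuron fraction.

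In the neuron fraction the endothelial list was the largest of the cell type lists, at 3.84, 3.49 and 3.72% of the counts in neuron ctl 1, 2 and 3, a mean of 3.68% ± 0.18 (SD, n = 3). The OPC libraries had 0.417, 0.304 and 0.444%, a mean of 0.388% ± 0.074 (SD, n = 3). Of its genes, 18 of 20 were called higher in the neuron fraction, with a median level difference of 2.73 log2 units, and the count was 18 as well without any 1 library. Cldn5, which codes for the claudin that seals the brain endothelium, was at 200.0, 138 and 209 CPM in the OPC fraction and 1970.3, 1577 and 1686 CPM in the neuron fraction. All neuron libraries lay above all OPC libraries. Its level was 7.57 ± 0.33 in the OPC fraction and 10.62 ± 0.10 in the neuron fraction, a difference of 3.05 log2 units. Itm2a, a membrane protein gene of brain endothelium, was at 192, 132 and 202 CPM against 9740.5, 8394 and 9406 CPM and was among the 5 highest matched genes of every neuron library. Cdh5, the cadherin of endothelial junctions, and Vwf, a clotting factor carrier of larger vessels, were the 2 that were not called. Cdh5 was at 94.6, 73.2 and 111 CPM against 73.9, 59.5 and 58.5 CPM and Vwf at 179.9, 152 and 193 CPM against 181, 144 and 121 CPM. With the dKO libraries in place of ctl 11 of 20 endothelial genes were called, and by percentile ranks 4. In neuron ctl 3 the erythroid list described below exceeded the endothelial one.

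The transporters of the blood-brain barrier, a list that shares Slco1a4, Slc2a1 and Abcb1a with the endothelial list, took 2.46, 2.41 and 2.66% of the neuron libraries and 0.343, 0.251 and 0.333% of the OPC libraries, and 15 of 18 were called higher in the neuron fraction. Slco1a4, which carries organic anions, was at 356, 218 and 319.8 CPM against 5226, 5237 and 6476 CPM. Slc2a1, the glucose carrier GLUT1, was at 525, 464 and 649 CPM against 3403, 3797 and 3239 CPM but was not called with the dKO libraries, and Mfsd2a, which carries omega-3 lipids, at 39.5, 35.1 and 39 CPM against 437, 520.4 and 482 CPM. Lrp8 and Slc6a6 were among the genes not called, and with the dKO libraries 9 of 18 genes were. Bsg, which codes for basigin and escorts lactate carriers to the membrane, reached 10368, 8549 and 8401 CPM in the neuron fraction and was among its 4 highest matched genes in each library. Of the junction genes, 6 of 14 were called higher in the neuron fraction and 3 in the OPC fraction, where Cldn11 of myelin took 63.0% of the list's counts.

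Lists for segments of the vessel tree were chosen after the levels had been seen. Capillary genes had 7 of 8 called higher in the neuron fraction, arterial genes 1 of 8 and venous genes 3 of 7. Car4, a carbonic anhydrase of capillaries, was at 37, 24.1 and 38.1 CPM against 1208, 1042 and 1234 CPM, and Slc38a5, a glutamine carrier of veins and capillaries, at 16.5, 10.2 and 16.1 CPM against 467, 414 and 444 CPM. Sema3g, an arterial gene, lay the other way, at 88.7, 64.7 and 103 CPM against 6.23, 7.27 and 4.7 CPM. Ackr1, a chemokine receptor of venules, was at 48.9, 4.84 and 8.42 CPM in the neuron libraries, highest in neuron ctl 1.

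Erythroid genes were read at different levels in the neuron libraries, at 1.12, 3.04 and 4.68% of the counts in neuron ctl 1, 2 and 3, a mean of 2.95% ± 1.8 (SD, n = 3). The OPC libraries had 0.00236, 0.00104 and 0.00212%. Of the matched genes, 6 of 6 were called higher in the neuron fraction, and the median level difference was 9.54 log2 units. Hba-a2, an adult alpha globin gene, was at 1.97, 0.937 and 1.39 CPM in the OPC fraction and 4119.8, 11860.5 and 18656 CPM in the neuron fraction, and Hbb-bs, an adult beta globin gene, at 11.5, 4.22 and 10.7 CPM against 4458, 11239 and 16973 CPM. Both were lowest in neuron ctl 1 and highest in neuron ctl 3. Of the 50-base stretches of their transcripts, 86.9% for Hba-a2 and 65.8% for Hbb-bs occur in another gene, so their counts depend on how each table treated reads that match several places. Alas2, the first enzyme of heme synthesis in red cells, has under 20% of its stretches in another gene and was at 0.757, 0.937 and 1.52 CPM against 133, 412 and 654 CPM.

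Upstream sequences are shown for the globins, which had the largest gaps of the neuron fraction, and for Cldn5, the endothelial marker followed above. Each holds the 250 bases before the annotated start, from RefSeq on GRCm38.p6, at chr7:103827929-103828178 on the minus strand for Hbb-bs, chr11:32296242-32296491 on the plus strand for Hba-a2 and chr16:18776597-18776846 on the plus strand for Cldn5. Capitals mark the TATA-type box CATATAA, the CCAAT box, the motif CACCC and the GATA-type motif GATAA, searched on both strands and chosen after the sequences had been seen.
Hbb-bs: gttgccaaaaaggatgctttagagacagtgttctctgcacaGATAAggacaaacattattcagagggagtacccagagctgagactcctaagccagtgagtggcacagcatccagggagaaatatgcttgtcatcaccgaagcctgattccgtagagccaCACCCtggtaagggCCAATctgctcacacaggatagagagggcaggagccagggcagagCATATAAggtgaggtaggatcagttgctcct
Hba-a2: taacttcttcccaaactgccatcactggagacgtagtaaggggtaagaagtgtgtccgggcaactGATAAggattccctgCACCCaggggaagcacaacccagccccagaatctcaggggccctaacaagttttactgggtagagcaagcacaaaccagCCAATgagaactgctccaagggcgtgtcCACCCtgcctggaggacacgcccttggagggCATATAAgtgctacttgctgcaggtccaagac
Cldn5: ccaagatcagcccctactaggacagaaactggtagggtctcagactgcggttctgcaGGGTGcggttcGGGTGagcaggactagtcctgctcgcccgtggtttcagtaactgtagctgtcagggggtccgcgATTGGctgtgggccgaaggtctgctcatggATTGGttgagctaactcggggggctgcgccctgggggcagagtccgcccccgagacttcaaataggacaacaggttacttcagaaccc
Hbb-bs holds the TATA-type box 31 bases, the CCAAT box 76 bases, the CACCC motif 90 bases and the GATA-type motif 209 bases before its start. Hba-a2 holds the same 4 motifs, with the TATA-type box 32 and the CCAAT box 91 bases before its start. The upstream bases of Hba-a1 equal those of Hba-a2 at 247 of 247 positions when shifted by 3 bases. Of the 6 matched erythroid genes 5 had an entry, and all 5 held the CACCC and the GATA-type motif. Of the 14 endothelial genes with an entry, 13 held the CACCC motif as well, and 2 the GATA-type motif. Cldn5 holds the CCAAT box and the CACCC motif, and neither of the others in this window. Of 27025 genes with an entry, 2.46% held the TATA-type box, 37.5% the CCAAT box, 54.5% the CACCC motif and 25.5% the GATA-type motif. The matches describe letters in the window and were not tested for use in these cells.

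**Figure D4:**
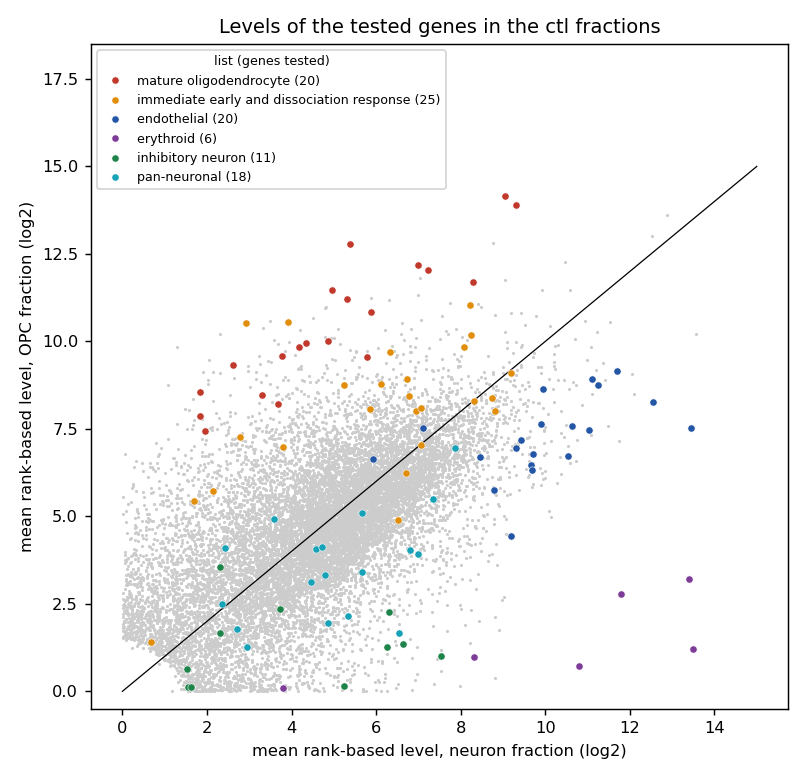
Mean level (log2) of each of the 14060 tested genes over 3 neuron ctl libraries (horizontal axis) and 3 OPC ctl libraries (vertical axis), with genes of 6 lists coloured and the line of equal level in black. Mature oligodendrocyte genes lie above the line, and endothelial genes, all but 2, and the 6 erythroid genes lie below it.

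Other blood and immune cells left less RNA. The lymphocyte list took 0.0305, 0.0104 and 0.0318% of the counts in the neuron libraries and was near 0 in the OPC libraries. Of 10 matched genes 7 passed the filter, which they could do only through the neuron fraction, so their 7 calls for that fraction were largely fixed by the filter. Ccl5, a chemokine of T and natural killer cells, was at 0.353, 0.134 and 0.0606 CPM against 162, 40.3 and 135 CPM, lowest among the neuron libraries in neuron ctl 2. B2m, the light chain of class I major histocompatibility complexes, was at 136, 109.9 and 156 CPM against 5583, 2226 and 3094 CPM, highest in neuron ctl 1. Neutrophil markers passed the filter for 2 of 7 matched genes, S100a8 and S100a9, and both were under 5 CPM in each neuron library. They too passed through the neuron fraction, and 0 of 2 were called with the dKO libraries or with the trend on GC content and length removed.

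Microglial markers took 0.262, 0.0568 and 0.12% of the neuron libraries and 0.0423, 0.041 and 0.048% of the OPC libraries. Of these, 2 of 17, Selplg among them, were called higher in the neuron fraction and 1, Sall1, in the OPC fraction. P2ry12, a receptor of resting microglia, was at 24.1, 16.5 and 23.8 CPM against 314, 52.9 and 137 CPM. Neuron ctl 1 held the most P2ry12, and neuron ctl 2 lay too little above the OPC libraries for a call. Without neuron ctl 2, 9 of 17 microglial genes were called higher in the neuron fraction, and 0 of 17 with the dKO libraries or with the trend on GC content and length removed. Without neuron ctl 1 the neuron share was 0.0886% in place of 0.146%, a change of over 1.5 times.

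Neuronal markers were higher in the neuron fraction but low in level. The pan-neuronal list took 0.0893, 0.123 and 0.117% of the neuron libraries, a mean of 0.11% ± 0.018 (SD, n = 3), and 0.030, 0.0349 and 0.037% of the OPC libraries, a mean of 0.034% ± 0.0036 (SD, n = 3). Of its genes, 9 of 18 were called higher in the neuron fraction and 1, Dnm1, in the OPC fraction. The call of Dnm1 was lost by ranks per length, with the dKO libraries and with the trend on GC content and length removed, and the count for the neuron fraction was 8, 7 and 9 there. Snap25, a membrane fusion protein of synapses, was at 13.5, 13.3 and 18.7 CPM in the OPC fraction and 116, 116 and 125 CPM in the neuron fraction. The neuron libraries lay close together and did not overlap with the OPC libraries. Its level was 4.04 ± 0.24 in the OPC fraction and 6.81 ± 0.06 in the neuron fraction, a difference of 2.77 log2 units. Per length, Snap25 averaged 105 TPM in the neuron fraction, beside 2452 TPM for Cldn5 in the same libraries. Elavl4, an RNA-binding protein of neurons from an early stage on, had the largest difference of the list, at 1.16, 3.68 and 2.37 CPM against 72.4, 119 and 113 CPM. Rbfox3, which codes for NeuN, was at 6.63, 8.2 and 5.42 CPM in the neuron libraries. Map2, Nefm, Syn1, Syp, Uchl1, Gap43, Thy1 and Eno2 were not called.

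Genes of interneuron precursors and of immature neurons were among those called for the neuron fraction. Of 13 matched inhibitory neuron genes 11 passed the filter, and 5 of 11 were called higher in the neuron fraction, namely Gad1, Gad2, Dlx1, Dlx2 and Dlx5. Dlx1, a homeobox factor of interneuron precursors, was at 0.757, 1.27 and 1.21 CPM against 141, 247 and 210.3 CPM, a difference of 6.54 log2 units. Gad1, which makes GABA, was at 3.58, 4.28 and 3.76 CPM against 59.4, 90.5 and 107 CPM. The genes of mature interneuron classes were low, with Sst at 0.853, 2.28 and 2.48 CPM, Vip at 1.18, 1.73 and 2.74 CPM and Pvalb at 12, 17 and 9.73 CPM in the neuron libraries. Among immature neuron genes, Dcx, Sox11 and Igfbpl1, or 3 of 5, were called. Sox11 was at 4.39, 7.03 and 5.4 CPM against 403, 681 and 556 CPM and Dcx, a microtubule protein of migrating neurons, at 2.73, 7.5 and 4.31 CPM against 188, 299.6 and 327 CPM. Neuron ctl 1 was the lowest neuron library for Dlx1, Sox11 and Dcx.

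Of the genes of dividing cells, 12 of 12 were called higher in the neuron fraction, at 0.0406, 0.0424 and 0.0634% of the counts against 0.0011, 0.00161 and 0.00136% in the OPC libraries. Being this low in the OPC fraction, they passed the filter largely through the neuron fraction, so the count of calls is no support for its direction. Top2a, which untangles replicated DNA, was at 1.26, 2.08 and 2.49 CPM against 101, 101 and 164 CPM, and Mki67, the gene of the Ki-67 antigen, at 1.62, 2.88 and 1.52 CPM against 53.3, 53.5 and 86 CPM. Neuron ctl 3 was the highest library for both. A list of subventricular progenitor genes, chosen after the levels had been seen, had 5 of 7 called. Its factor Sp8 was at 54.2, 82.2 and 79.4 CPM in the neuron libraries.

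Excitatory neuron genes were lower. They took 0.0158, 0.0143 and 0.0145% of the neuron libraries and 0.00894, 0.00879 and 0.00965% of the OPC libraries. Of 13 matched genes 10 passed the filter, and 6 of 10 were called higher in the neuron fraction and 1, Cux2, in the OPC fraction. With the dKO libraries, 2 of 13 were called for the neuron fraction. Slc17a7, the vesicular glutamate transporter of cortical excitatory cells, was at 3.89, 2.75 and 3.64 CPM against 15.1, 9.55 and 9.8 CPM. Bcl11b, a factor of deep-layer and also of striatal neurons and lymphocytes, was at 0.757, 1.47 and 2.24 CPM against 16.3, 23.8 and 20.8 CPM. Cux2, a factor of upper-layer neurons, was at 40.2, 42 and 39.9 CPM against 5.45, 5.12 and 3.27 CPM.

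OPCs and neurons sense transmitters through receptors. Among the ionotropic glutamate and purinergic receptor genes tested, 9 of 15 and 10 of 13 were called for neither fraction, beside 62.4% of all genes tested. Of the ionotropic glutamate receptor genes, 4 of 15, Gria4, Grik1, Grik4 and Grik5, were called higher in the OPC fraction, and 2, Grin1 and Grin2b, in the neuron fraction, where 1 was called with the dKO libraries. Among all genes tested, 18.7% were called for the OPC fraction and 18.9% for the neuron fraction. Gria4, an AMPA receptor subunit, was at 59.9, 83.8 and 66.9 CPM against 14.6, 12.6 and 12.4 CPM, and Grin2b, an NMDA receptor subunit, at 0.454, 0.469 and 1.15 CPM against 9.71, 6.66 and 9.73 CPM. Of 14 matched GABA-A receptor genes 12 passed the filter, and 5 of 12 were called higher in the neuron fraction and 0 in the OPC fraction. Among purinergic receptors, 3 of 13 were called for the OPC fraction, with Adora1, the adenosine A1 receptor, at 93.1, 122 and 111 CPM against 14, 6.83 and 4.31 CPM. None was called for the neuron fraction, and 2 were without neuron ctl 2 or without neuron ctl 3.

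Of the genes of the synaptic vesicle and of membrane fusion, 13 of 23 were not called, 7 of 23 were called higher in the neuron fraction and 3, Sv2a and Slc6a17 among them, in the OPC fraction. These calls are 30.4% and 13% of the list, beside 18.9% and 18.7% of all genes tested, of which 62.4% were called for neither fraction. Sv2a, a vesicle membrane protein, was at 384, 515 and 406 CPM in the OPC fraction and 11.1, 13.6 and 7.58 CPM in the neuron fraction, and it took 42.1% of the list's counts in the OPC fraction. Vamp2, a vesicle fusion protein, was at 202, 195 and 182 CPM against 118, 137 and 110.5 CPM and was not called.

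Lysosomal genes bear on the study's question about neuronal lysosomes. Of 36 genes, 6 were called higher in the OPC fraction, which is 16.7% beside 18.7% of all genes, and 4 in the neuron fraction, which is 11.1% beside 18.9%. With the trend on GC content and length removed, 1 was called for the neuron fraction. Psap, whose product helps enzymes degrade sphingolipids, was at 2166, 1746 and 1740.2 CPM against 338, 324 and 278 CPM, and Npc1, which exports cholesterol from lysosomes, at 413, 528 and 406 CPM against 38.4, 21.2 and 16.1 CPM. Scarb2, Galc, Gaa and Tfeb were the other genes called for the OPC fraction. Those called for the neuron fraction included Ctsc, Ctsh and Lipa. Lamp1, the abundant protein of the lysosomal membrane, was at 834, 1044 and 984 CPM against 733, 631 and 607 CPM and was not called. Among glycolytic genes, Gapdh and Ldha were called for the neuron fraction, 2 of 16, and 4 of 16 with the trend on GC content and length removed. Gapdh was at 11.3, 10.4 and 11 CPM in the OPC fraction and 597, 484 and 399 CPM in the neuron fraction, and 27.2% of its 50-base stretches occur in another annotated gene, so its call is uncertain.

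The largest gaps between the fractions were looked at next, with the 12 called genes of largest gap in each direction among those with a mean CPM of at least 50. For the OPC fraction these were Myrf, Fosb, Sez6l2, Kndc1, Sec14l5, Cntn2, Aatk, Hcn2, Ccdc187, Srcin1, Itgb4 and Cadm4. Cntn2, an adhesion protein of the juxtaparanode, a region near the node of Ranvier, was at 1276, 1669.6 and 1287 CPM against 14.6, 10.7 and 6.99 CPM. Hcn2, a pacemaker channel, was at 484, 499 and 608 CPM against 4.2, 3.7 and 3.72 CPM. For the neuron fraction they were Hba-a1, Hba-a2, Hbb-bs, Hbb-bt, Pde2a, Gm6750, Cpne1, Taf9, Septin2, Ube2v1, Gm2026 and Rnaset2a. Those outside the globins had under 4 CPM in each OPC library. Taf9, a subunit of the general transcription machinery, was at 0.303, 0.268 and 0.303 CPM in the OPC fraction and 126, 126 and 134 CPM in the neuron fraction. For Pde2a, Cpne1, Taf9 and Ube2v1, 64.3%, 84.1%, 73.8% and 69.1% of the exonic bases lie within another annotated gene too. Of the 50-base stretches in the longest transcripts of Gm2026, Rnaset2a and Gm6750, 100%, 81.6% and 77.2% occur in another gene, so the counts of these 7 genes are uncertain.

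**Figure D5:**
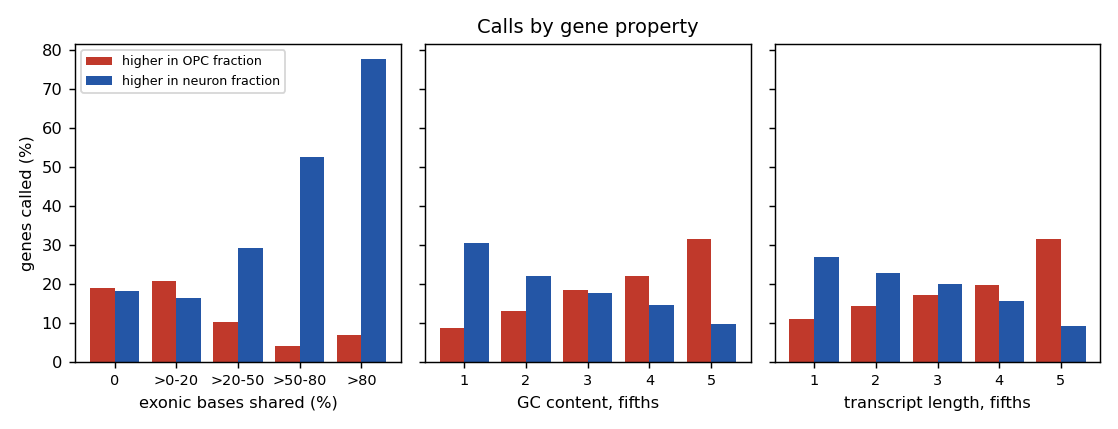
Percent of genes called higher in the OPC fraction (red bars) and in the neuron fraction (blue bars), by the share of a gene's exonic bases that lie in another gene, by GC content and by length of the longest transcript, over 13861 tested genes with an annotation. Calls for the neuron fraction went from 18.1% of genes that share no exonic base to 77.6% of genes that share over 80%, and calls for the OPC fraction from 8.62% in the lowest to 31.5% in the highest band of 5 by GC content.

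This pattern held across genes. Among 13861 tested genes with an annotation, 1605 of the 8873 that share no exonic base with another gene were called higher in the neuron fraction, and 45 of the 58 that share over 80%. The OPC-minus-neuron level difference also went with GC content, at a Spearman's rho of 0.282, and with the length of the longest transcript, at 0.233, both across genes that share the same 6 libraries. Without genes that share at least 20% of their exonic bases, 2551 genes were called for the OPC fraction and 2311 for the neuron fraction. With the trends on GC content and length removed, these counts were 2450 and 1999. Both alternatives were chosen after seeing the data. After the trends were removed, 20 mature oligodendrocyte, 18 endothelial, 6 erythroid and 12 dividing cell genes were called, the numbers given above. Calls for the OPC fraction went from 6 to 4 astrocyte, from 6 to 4 lysosomal, from 5 to 1 channel and from 4 to 2 antigen genes, and calls for the neuron fraction from 7 to 5 lymphocyte, from 4 to 1 lysosomal, from 2 to 0 neutrophil and from 2 to 0 microglial genes. How much of any single gene's difference comes from the counting was not tested.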

How the data were processed

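RNA-seq libraries of sorted cortical cells were used, 3 ctl libraries of the OPC fraction and 3 of the neuron fraction. Libraries were prepared from poly(A) RNA. The OPC table, as deposited, holds raw counts for 30165 Ensembl genes, and FPKM values. The methods name HISAT2 and featureCounts on GRCm38 for the gene counts, and the labels name mm39. For the neuron fraction the authors deposited estimated counts and TPM for 66298 RefSeq transcripts. The methods do not tell the fractions apart, and estimated transcript counts that are not whole are not what featureCounts writes by default. The columns of the authors' own fold changes and p-values were not used. Counts were summed per gene, and 17794 of 17918 gene identifiers were given symbols from RefSeq on GRCm38.p6. CPM used the total of each table.

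Genes were ranked within each library, and a gene was called at a gap of 1 log2 unit, with a pseudocount of 1 and a mean CPM of at least 1. Level differences are on this log2(CPM + 1) scale, which understates differences of low genes. No test was run, since the tables were counted in different ways. The step was checked on simulated counts drawn from a common profile for both groups, with known changes planted in some genes. The simulation held no difference in counting method, so it does not bear on that difference between the tables. FPKM and TPM values were used per length only, after scaling each library to the same total. Properties of genes came from GENCODE M21. Analyses used Python 3.11.15, pandas 2.3.3 and, for TMM factors, edgeR 4.0.16 in R. Named genes were the 4 markers, the targeted and bead antigen genes, the 12 highest genes per fraction, the 12 of largest gap per fraction and up to 3 of highest CPM per list and fraction. Results of some genes are not reported here. Other genes were named after their values had been seen. The members and lists were chosen with earlier results of these data known. Replicates come from pools of 2 mice each. Total counts give a precision that covers counting error only.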

Additional observations from a re-analysis of the deposited data

Results flagged for a closer look

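The comparison used only genes matched by a symbol that is unique in both tables. A further 13662 genes of the OPC table were not matched in this way, which includes genes with a repeated symbol, such as Ptp4a1. Of these, 297 reached at least 10 CPM in all 3 OPC ctl libraries, a signal outside the comparison. These 297 genes held 5.26 to 6.33% of the counts of the OPC libraries. They include 123 long noncoding RNA genes, 74 protein-coding genes and 51 processed pseudogenes. The mitochondrial gene mt-Co1 led, at 15523, 12984 and 17148 CPM in OPC ctl 1, 2 and 3. Malat1, a nuclear noncoding RNA, was at 2111, 2656 and 2316 CPM, and Neat1, the noncoding RNA that builds paraspeckles, at 1378, 1233 and 1067 CPM. Mitochondrial genes together took 3.64 to 4.77% of the OPC libraries. No neuron value of these genes was analysed here. Groups of 3 libraries are too small for the check of single outlying samples.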

How the results depend on the processing

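The 2635 and 2656 genes called for the OPC and the neuron fraction became 1200 and 924 with a gap of 2 log2 units, and 5227 and 6185 with no overlap and no minimum gap. With a gap of 2 units the pan-neuronal count went from 9 to 5 and the OPC marker count from 7 to 3, and with no minimum gap the pan-neuronal count was 14. With percentile ranks 4 endothelial genes were called in place of 18, and in dKO libraries 11, while other alternatives gave 13 to 18. Genes near the top ranks in both fractions cannot reach the percentile gap. All 20 mature oligodendrocyte genes were called in each alternative but 2, with 14 by percentile ranks and 19 without genes sharing exonic bases. Without each library in turn the ranges were 2687 to 2843 and 2722 to 2941 genes, and 7 to 9 OPC, 9 to 10 pan-neuronal, 18 endothelial and 20 mature oligodendrocyte markers. Shares of counts in dKO libraries moved by more than 1 SD of the ctl libraries, in the OPC fraction to 7.56% on mature oligodendrocyte and 0.0751% on OPC markers, and in the neuron fraction to 2.73% on endothelial, 0.158% on pan-neuronal, 0.0852% on inhibitory neuron, 0.172% on immature neuron and 1.92% on choroid plexus markers. The cause of these moves was not tested. The median OPC-minus-neuron difference of all tested genes was -0.23 without ranks and 0.02 with TMM scaling. Of the 54 markers, antigen, targeted, highest and largest-gap genes, 50 were called in the main comparison. Of the 54, 45 kept the same status, called or not called, in the 11 alternatives run for single genes (without ranks, TMM scaling, per length, dKO libraries, leaving out each library, and trends removed). No direction reversed there in a called gene. Percentile ranks, other gaps, other filters and the removal of genes that share exonic bases were not run for single genes. No paired analysis was possible because the result comes from no test and same-numbered libraries are not all of the same mice.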
